A study of Mus musculus with 6 samples.

Results

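The genes examined here encode the subunits of mitochondrial complexes I to V, cytochrome c and the complex I assembly factors named Ndufaf. They were chosen by symbol alone: every probe whose gene symbol began with Nduf, Uqcr, Atp5, Cox4, Cox5, Cox6, Cox7 or Cox8, or was Sdha, Sdhb, Sdhc, Sdhd, Cycs or Cyc1. The rule took in 139 of the 45281 probes of the array, for 89 of the 19057 named genes, and no measured value entered it. By complex, 34 genes were assigned to complex I, 4 to complex II, 8 to complex III, 17 to complex IV and 16 to ATP synthase, with 1 gene for cytochrome c, 8 Ndufaf assembly factors and 1 pseudogene, Ndufs5-ps. Ndufa4 was counted in complex IV, where its protein is now placed.

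Expression was measured in monocytes and macrophages that had been purified with magnetic beads from mouse bone marrow. All 6 mice were BALB/c Rag2-/-γc-/-, a genotype without T, B and NK cells, were 11 weeks old and were studied at day 21. The 3 control mice (A, B and C) were untreated, and the 3 MEC1 mice (D, E and F) had received MEC1 cells by intravenous injection. MEC1 is a human line of leukaemic B cells, established from chronic lymphocytic leukaemia, and the controls received no injection. Each mouse gave 1 array, and the comparison asks how marrow monocytes and macrophages differ between mice injected with MEC1 cells and untreated mice. How many MEC1 cells the mice carried was not measured here.

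The respiratory chain passes electrons from NADH (complex I) and succinate (complex II) through ubiquinone to complex III, then by cytochrome c to complex IV, which reduces oxygen. Complexes I, III and IV pump protons across the inner mitochondrial membrane, and ATP synthase, complex V, uses the returning protons to make ATP. Most subunits are nuclear-encoded, and a few are encoded by mitochondrial DNA and are therefore outside the symbol rule. In macrophages the balance between this pathway and glycolysis is known to shift with activation.

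All 6 arrays lay on 1 chip, controls at positions 1 to 3 and MEC1 mice at positions 4 to 6, so chip position and group cannot be told apart except by a linear term. The arrays detected 15545 to 16976 probes each, and median raw intensity was 114 to 131 in control mice and 70.7 to 87.6 in MEC1 mice. Log2 intensities correlated across probes at Pearson's r of 0.991 to 0.994 among control mice and 0.966 to 0.983 among MEC1 mice. Of 9 monocyte and macrophage markers, all 9 were tested. Fcgr1 rose, Mrc1 and Lyz2 fell, and 6 did not pass. Of the 9, 2 were above 0 and 7 below, with a median log2 change of -0.45. At an unadjusted p under 0.05 in limma, 4 were lower and 1 higher, beside 10.4% and 10.6% of all tested genes. Markers of neutrophils, myeloid progenitors, eosinophils and red cell precursors were bright as well. The summed normalized intensity of the 9 monocyte and macrophage markers was 64648 to 68427 in control mice and 53192 to 56169 in MEC1 mice. For 10 neutrophil markers it was 90252 to 109703 in control mice and 107179 to 112248 in MEC1 mice. For 5 myeloid progenitor markers it was 82374 to 90503 and 89880 to 98472, and for 4 eosinophil markers 52681 to 59483 and 56475 to 67594. The lists differ in size and in the brightness of their genes, so these sums do not measure relative amounts of the cell types. The median log2 changes of the neutrophil, myeloid progenitor and eosinophil lists were 0.05, 0.15 and 0.33. All 10 tested erythroid markers were lower in MEC1 mice, at a median log2 change of -0.98, and mouse E lay lowest (-1.84 against -0.53 in D and -0.35 in F). None of the 10 markers was called in limma, and 7 were lower at an unadjusted p under 0.05, beside 10.4% of all tested genes. Their summed normalized intensity was 120837 to 149578 in control mice and 61693 to 105366 in MEC1 mice, and of the list only Epb42 was detected on no array. In bulk RNA such as this, fewer cells of a type and less RNA per cell cannot be told apart, and the part of these shifts in the values below was not tested.

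A probe was tested where its detection p was under 0.05 on at least 3 of the 6 arrays. This held for 114 member probes and 82 member genes, and 80 of the 82 were detected on all 6 arrays by the probe that stands for the gene. The 7 genes with no tested probe were Ndufs1 and Sdha, core subunits of complexes I and II, the assembly factor Ndufaf6, and the tissue forms Cox4i2, Cox7b2, Cox8b and Cox8c of complex IV. Cox8b, a heart and muscle form, was detected on 1 MEC1 array and the other 6 genes on none. Values below are normalized log2 intensities, a change is MEC1 minus control on that scale, and a call is an adjusted p under 0.05 over all 16460 tested probes in limma. Where several probes were tested, the brightest stands for the gene.

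Most of the respiratory chain differed little between the groups. Of the 114 tested member probes, 1 was called, a Cox6b1 probe that rose, beside 1.54% of all tested probes (0.869% called higher and 0.668% called lower). No member gene was called at its representative probe, beside 1.74% of the 9089 tested genes (0.946% higher and 0.792% lower). At an unadjusted p under 0.05, 15 of the 82 genes differed, or 18.3%, beside 21.0% of all tested genes. Of these, 11 were higher, beside 10.6% of all tested genes, and 4 lower, beside 10.4%. When arrays were scaled to 1 median, which set the median of all tested genes at -0.47, these counts were 0 higher and 8 lower. The changes ran from -0.74 for Cox6b2 to 0.93 for Cox7a1, with a median of 0.10 beside 0.00 over all tested genes, and 55 of 82 genes were above 0 (67.1%, beside 49.5% of all tested genes). Under that scaling 15.9% of the member genes were above 0, beside 13.7% of all tested genes. The median size of the change, whatever its sign, was 0.18 beside 0.29 over all tested genes, and 11 genes had a change of 0.5 or more in either direction (13.4%, beside 25.6%). The 95% interval of the change stayed within 1 log2 unit of 0 for 69 of the 82 genes, so that a 2-fold change either way lay outside it, beside 5909 of 9089 tested genes. This held for 36 of the 82 with chip position as a covariate and for 56 with scaling to 1 median.

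**Figure D1:**
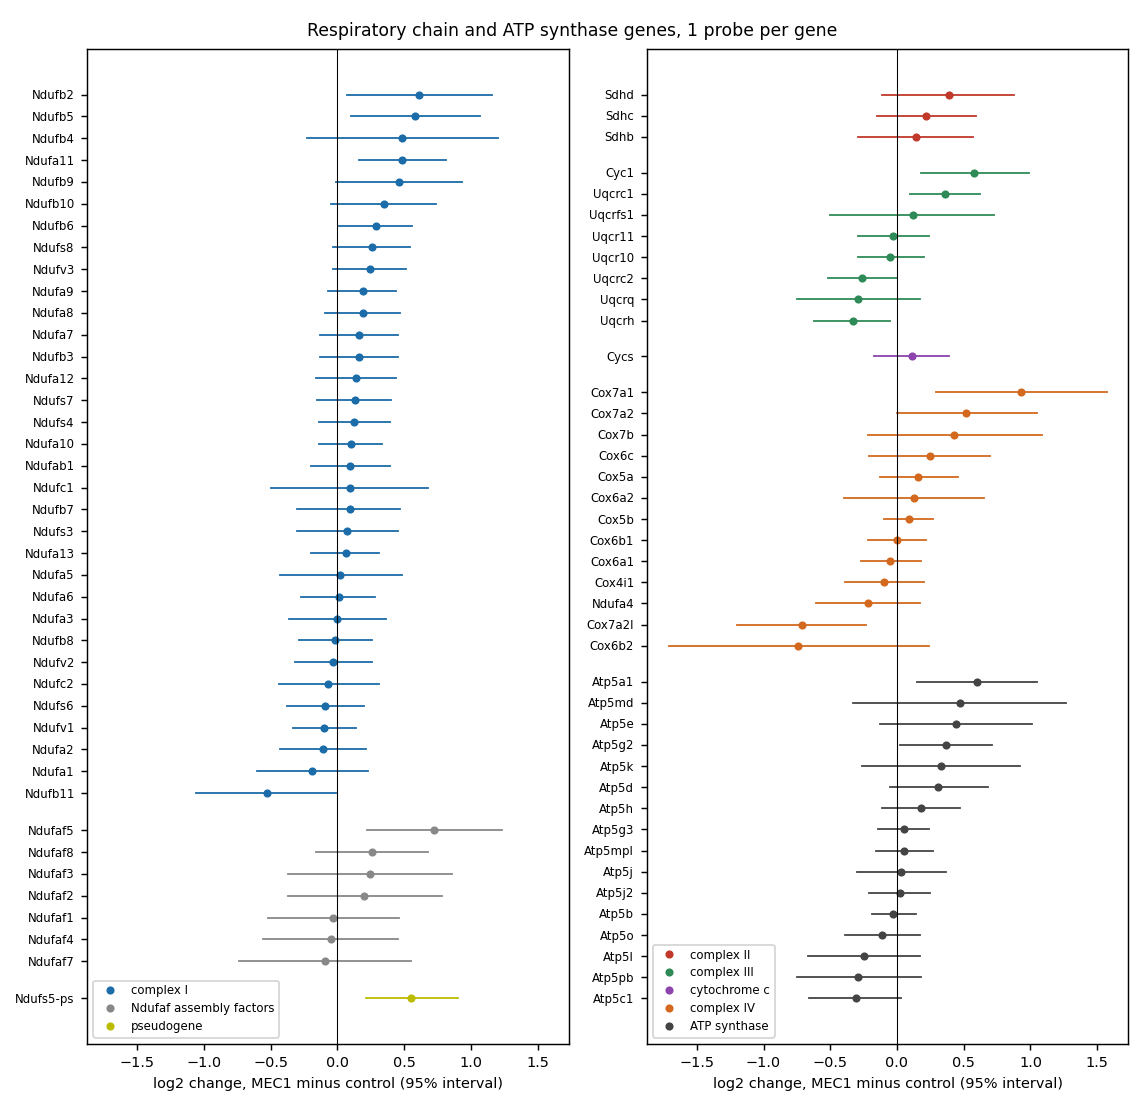
Log2 change of each tested member gene, MEC1 minus control, at its brightest probe, grouped by complex; points are estimates and lines 95% intervals from limma, 3 mice per group. Most points lie close to 0, and the extremes are Cox7a1 at 0.93 and Cox6b2 at -0.74.

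The groups did not overlap in 24 of the 82 genes (29.3%, beside 29.0% of all tested genes). In 19 of them all 3 MEC1 mice lay above all 3 control mice, beside 15.0% of all tested genes, and in 5 all lay below, beside 14.0%. Among the MEC1 mice, the median difference from the control mean over the 82 genes was 0.18 in D, 0.02 in E and 0.14 in F, where all tested genes gave 0.09, -0.07 and 0.00. Of the MEC1 mice, E was lowest and D highest, and the same held over all tested genes. E was the lowest of the MEC1 mice in 42 of the 82 genes (51.2%, beside 42.6% of all tested genes). Mouse E also had the lowest erythroid values and the lowest median raw intensity (70.7), and a link to either was not tested.

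**Figure D2:**
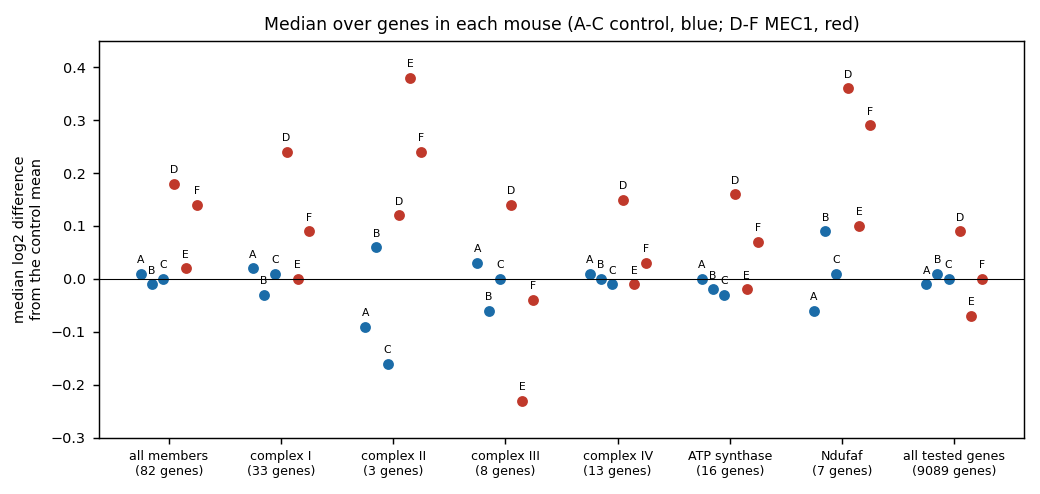
Median over genes of each mouse's log2 difference from the control mean, by complex, with A to C control mice (blue) and D to F MEC1 mice (red). For complex I the medians were 0.24, 0.00 and 0.09 in D, E and F, and for complex III 0.14, -0.23 and -0.04.

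Promoters are shown for 3 members: Cox6b1, which holds the one called probe, Uqcrc1, a complex III subunit, and Ndufaf5, an assembly factor whose probes gave the same change. Each is the RefSeq window of 250 bases before and 50 bases after the annotated start in GRCm38.p6, read 5′ to 3′ along the gene's strand. Capitals mark a core motif of NRF1 (GCATGCG) or of ETS factors such as GABPA (CCGGAAG), regulators known for nuclear-encoded respiratory genes, on either strand.
Cox6b1: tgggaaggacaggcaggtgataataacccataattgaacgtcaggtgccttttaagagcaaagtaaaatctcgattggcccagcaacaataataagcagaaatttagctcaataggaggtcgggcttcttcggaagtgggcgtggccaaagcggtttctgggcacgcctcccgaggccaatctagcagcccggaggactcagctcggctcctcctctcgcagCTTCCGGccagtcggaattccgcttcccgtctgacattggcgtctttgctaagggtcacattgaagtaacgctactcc
Uqcrc1: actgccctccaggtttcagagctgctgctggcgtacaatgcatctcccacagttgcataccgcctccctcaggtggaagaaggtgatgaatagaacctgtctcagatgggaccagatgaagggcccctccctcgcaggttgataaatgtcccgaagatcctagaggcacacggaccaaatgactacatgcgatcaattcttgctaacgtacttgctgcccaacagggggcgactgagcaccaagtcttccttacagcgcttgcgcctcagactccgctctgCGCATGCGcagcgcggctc
Ndufaf5: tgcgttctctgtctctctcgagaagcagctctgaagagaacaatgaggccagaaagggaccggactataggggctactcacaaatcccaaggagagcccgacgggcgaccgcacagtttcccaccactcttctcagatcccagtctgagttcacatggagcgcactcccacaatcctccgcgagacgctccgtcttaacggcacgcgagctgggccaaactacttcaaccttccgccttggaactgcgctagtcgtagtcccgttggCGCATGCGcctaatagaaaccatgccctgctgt

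The Cox6b1 window, chr7:30626065-30626364 on the minus strand, holds the ETS core on the opposite strand, starting 28 bases before the start. In Uqcrc1 (chr9:108936398-108936697, plus strand) and Ndufaf5 (chr2:140170396-140170695, plus strand) the NRF1 core is read on both strands in overlapping copies, just after the start. Of the 89 member genes, 73 had a window. The NRF1 core was in 14 of them (19.2%, beside 4.01% of 27025 genes with a window), the ETS core in 18 (24.7%, beside 9.93%), the YY1 core AAGATGG in 11 (15.1%, beside 7.28%) and the ERR core AAGGTCA in 7 (9.59%, beside 5.38%). Each was searched on both strands over 300 bases, and copies of different motifs may overlap. The median log2 change was 0.12 in the 14 tested members with the NRF1 core and 0.09 in the 56 without it. For the ETS core it was 0.12 and 0.10, for the YY1 core 0.03 and 0.11. The 7 members with the ERR core had a median of 0.39, and the 63 without it 0.09. Those 7 ran from -0.25 for Atp5l to 0.61 for Ndufb2, and none was called. The brightest of them, Atp5g3 and Atp5l, gave 0.05 and -0.25. A link between a motif and the changes was not tested. A match describes letters in a window and is no evidence of binding.

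Complex I, which takes electrons from NADH, had 33 tested genes, 24 of them above 0 and 9 below, with a median log2 change of 0.10. Its catalytic core gene Ndufv1, which encodes the subunit that binds NADH, lay at 12.80, 12.95 and 12.94 in control mice A to C and 12.82, 12.74 and 12.85 in MEC1 mice D to F. The groups overlapped, with a change of -0.10 (95% interval -0.33 to 0.14). Ndufa11, an accessory subunit of the membrane arm, lay at 11.12, 11.09 and 11.10 in control mice and 11.75, 11.63 and 11.38 in MEC1 mice. All MEC1 mice were higher, but the change of 0.48 ± 0.14 (SE) did not pass (adjusted p = 0.132 in limma). Ndufb5 and Ndufb2, further accessory subunits of the membrane arm, gave 0.58 (adjusted p = 0.188) and 0.61 (adjusted p = 0.209), with no overlap in either. Ndufb11, an accessory subunit encoded on the X chromosome, was the one complex I gene below the controls in all MEC1 mice. Its changes were -0.53 and -0.71 at 2 probes (adjusted p = 0.246 and 0.22).

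Ndufab1 encodes the mitochondrial acyl carrier protein, a complex I subunit that also serves fatty acid synthesis, and it is singled out here after its values were seen. At 1 of its 4 tested probes the values were 10.93, 10.89 and 11.03 in control mice and 11.40, 12.16 and 12.22 in MEC1 mice. All MEC1 mice were higher, D least, with a change of 0.98 ± 0.22 (SE, adjusted p = 0.0674). The other probes gave 0.09 at the brightest, 0.03 and 0.21. Without mouse D the call at the singled-out probe was made, with a change of 1.23 (adjusted p = 0.000979). In that setting 7.35% of all tested probes were called, beside 1.54% in the main fit. The probe was also called without the detection filter and with array weights, but not when any other mouse was left out. Its change was 0.28 (adjusted p = 0.745) with chip position and 0.52 with scaling to 1 median, neither called. Ndufs5-ps, a pseudogene of a complex I subunit, changed by 0.55 (adjusted p = 0.12), with no overlap between groups. The signal of its probe could be that of the parent gene, which was not checked.

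The 7 tested Ndufaf assembly factors had a median of 0.20. Ndufaf5, a methyltransferase-like assembly factor, lay at 7.68, 7.75 and 7.58 in control mice and 8.24, 8.66 and 8.27 in MEC1 mice at its brightest probe. The groups did not overlap at either probe, and both changes were 0.72 (adjusted p = 0.141 and 0.176). For Ndufaf4, the probes gave -0.05 and -0.50, neither called.

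Complex II, succinate dehydrogenase, links the chain to the TCA cycle. Its 3 tested genes were all above 0, with a median change of 0.22, and none separated the groups. Sdhb, the iron-sulfur subunit, changed by 0.14 and 0.25 at 2 probes, and the membrane anchors Sdhc and Sdhd by 0.22 (95% interval -0.15 to 0.59) and 0.39 (-0.11 to 0.88). The flavoprotein Sdha was detected on no array.

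Complex III members went both ways, with 3 genes above 0, 5 below and a median of -0.04. The median was 0.13 with chip position as a covariate, 0.05 without mouse E and -0.12 without mouse D. Cyc1, which encodes cytochrome c1, lay at 11.37, 11.57 and 11.76 in control mice and 11.93, 12.49 and 12.03 in MEC1 mice. All MEC1 mice were higher, with a change of 0.58 ± 0.18 (SE, adjusted p = 0.137). The call was made without mouse D (0.69, adjusted p = 0.045). In that setting 7.35% of all tested probes were called, beside 1.54% in the main fit. The Cyc1 change was 0.15 (adjusted p = 0.71) with scaling to 1 median and 0.22 (adjusted p = 0.795) with chip position. The core protein gene Uqcrc1 lay at 12.33, 12.20 and 12.40 in control mice and 12.72, 12.71 and 12.58 in MEC1 mice, a change of 0.36 ± 0.11 (SE, adjusted p = 0.146). Its partner Uqcrc2 went the other way, at 13.09, 13.10 and 13.31 in control mice and 12.76, 12.94 and 13.01 in MEC1 mice, a change of -0.26 ± 0.11 (SE, adjusted p = 0.245). Uqcrh, the hinge protein that helps cytochrome c1 dock cytochrome c, lay at 13.74, 13.83 and 13.72 and at 13.54, 13.15 and 13.60, a change of -0.33 ± 0.13 (SE, adjusted p = 0.198). The groups overlapped in none of these 4 genes, which were named for the smallest p in the complex, and none was called. Of the 8 tested complex III genes, all MEC1 mice lay above the controls in 2 and below them in 2. Over all tested genes these shares were 15.0% and 14.0%. Uqcrfs1, the Rieske iron-sulfur protein, was dim at its tested probe and changed by 0.12 (95% interval -0.50 to 0.73).

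**Figure D3:**
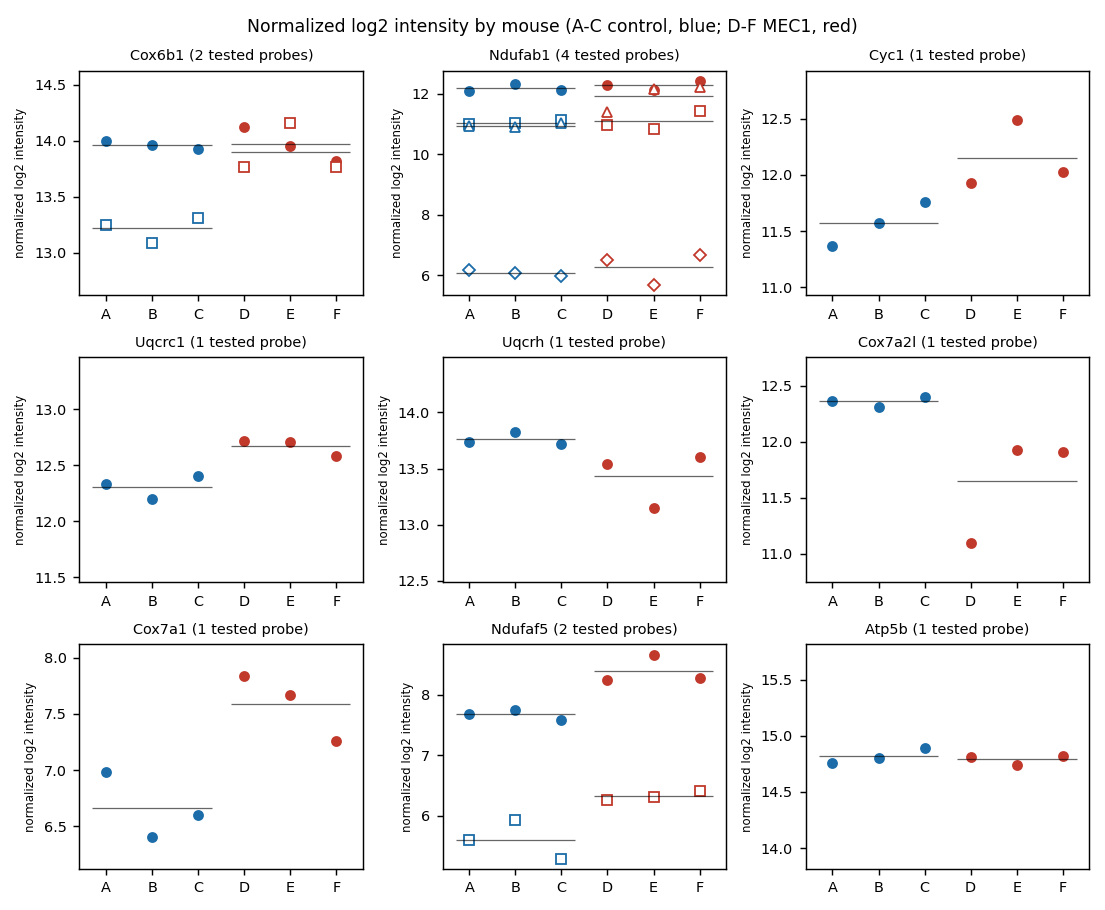
Normalized log2 intensity in each mouse for 9 member genes, with A to C control mice in blue and D to F MEC1 mice in red; filled symbols are the brightest probe, open symbols other tested probes, and lines group means. The second Cox6b1 probe and 1 Ndufab1 probe separate the groups while their other probes overlap.

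Cycs, the electron carrier cytochrome c that also takes part in apoptosis, changed by 0.11 at its brightest probe (95% interval -0.17 to 0.39). Its 2 dimmer probes gave 0.56 and 0.75, with no overlap between groups in either and adjusted p = 0.322 and 0.176.

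Complex IV, cytochrome c oxidase, had the widest spread of the complexes, from -0.74 to 0.93 over 13 tested genes, with a median of 0.09. Cox6b1, a subunit facing the intermembrane space where cytochrome c docks, held the one called member probe. At it the values were 13.25, 13.09 and 13.31 in control mice and 13.77, 14.16 and 13.77 in MEC1 mice. All MEC1 mice were higher, and the probe rose by 0.68 ± 0.13 (SE, 95% interval 0.39 to 0.97, adjusted p = 0.041), a 1.6-fold difference. The other Cox6b1 probe, brighter and annotated to the same transcript, lay at 14.00, 13.96 and 13.93 and at 14.12, 13.95 and 13.82, a change of 0.00 (95% interval -0.22 to 0.22). The call was lost without any one of the control mice or without E or F, with adjusted p up to 0.191, and held without D. The probes thus do not give 1 value for the gene.

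The groups overlapped in Cox4i1, Cox5a, Cox6a1 and Ndufa4. Cox4i1, an early-assembling nuclear subunit, changed by -0.10 (95% interval -0.39 to 0.20), Cox5a by 0.16 (-0.13 to 0.46) and Cox6a1 by -0.05 (-0.27 to 0.18). Ndufa4 changed by -0.22 (-0.61 to 0.17). Cox7a2l, which helps join complexes III and IV into supercomplexes, lay at 12.36, 12.31 and 12.40 in control mice and 11.10, 11.93 and 11.91 in MEC1 mice. All MEC1 mice were lower, D by most, with a change of -0.71 ± 0.22 (SE, adjusted p = 0.136).

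The tissue forms of complex IV included the member genes at both extremes. Cox7a1, the heart and skeletal muscle form, lay at 6.98, 6.40 and 6.60 in control mice and 7.84, 7.67 and 7.26 in MEC1 mice, a change of 0.93 ± 0.28 (SE, adjusted p = 0.137). The muscle markers moved unevenly beside it, and 4 of 6 were tested. Their median difference from the control mean was 0.49 in A, -0.10 in B and -0.33 in C. In MEC1 mice it was 0.69 in D, 0.82 in E and -0.30 in F. The summed intensity of the muscle markers was 788 to 1296 in control mice and 743 to 2053 in MEC1 mice. Myh4 was detected on no array. Mouse F was the lowest MEC1 mouse and mouse A the highest control mouse in both Cox7a1 and the muscle median. The Cox7a1 value of mouse F was above all controls. A link between Cox7a1 and the muscle markers was not tested. Cox6a2, another muscle form, changed by 0.13 (95% interval -0.40 to 0.65). Cox7a2, the form of most tissues, changed by 0.52 (adjusted p = 0.254). Cox6b2, the testis form, lay at 9.02, 9.44 and 9.69 in control mice, and at 7.63 in E, 9.31 in F and just under the lowest control in D. The groups overlapped, with a change of -0.74 (95% interval -1.71 to 0.24). Cox8a and Ndufa4l2 matched no named probe and were not analysed here.

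ATP synthase had 16 tested genes, 11 above 0 and 5 below, with a median of 0.05. Atp5b, which encodes the catalytic beta subunit, lay at 14.76, 14.80 and 14.89 in control mice and 14.81, 14.74 and 14.82 in MEC1 mice. The groups overlapped and the change was -0.03 (95% interval -0.19 to 0.14). Atp5a1, the alpha subunit, lay at 9.56, 10.07 and 9.54 and at 10.31, 10.16 and 10.51 at its brightest probe, a change of 0.60 ± 0.20 (SE, adjusted p = 0.156), while the other probe gave -0.19. Atp5c1, the central stalk subunit gamma, changed by -0.31 (adjusted p = 0.291), Atp5d, the delta subunit of the same stalk, by 0.31 (adjusted p = 0.312) and Atp5g2, a subunit of the rotating membrane ring, by 0.37 (adjusted p = 0.227). Atp5pb, of the peripheral stalk, had probes at -0.29, -0.58 and 0.29. Atpif1, which inhibits ATP hydrolysis by the synthase and lies outside the symbol rule, changed by -0.33 (adjusted p = 0.23) and -0.60 at 2 probes.

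Probes of 1 gene did not always move together. Of the 24 member genes with several tested probes, 6 had changes of opposite sign, and 5 had probes that differed by 0.5 or more. These were Ndufab1, Atp5pb, Atp5a1, Cox6b1 and Cycs. The median gap between probes of a gene was 0.20, beside a median size of change of 0.18 over the member genes.

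**Figure D4:**
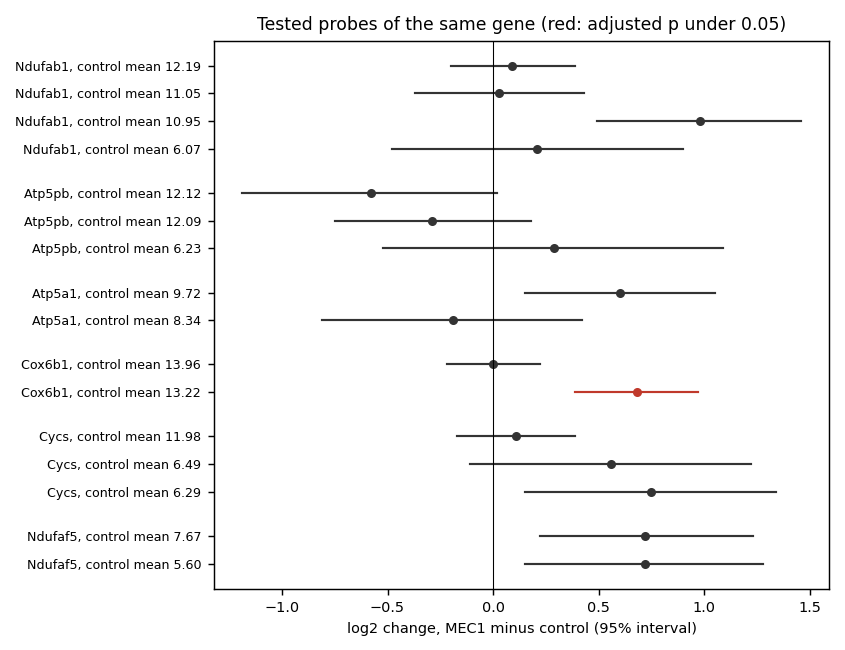
Log2 change with 95% interval for each tested probe of 6 member genes, each line labelled with that probe's mean normalized log2 intensity in control mice. The red Cox6b1 probe, at 0.68, is the one called, while the other Cox6b1 probe is at 0.00, and the 2 Ndufaf5 probes are both at 0.72.

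The genes around the respiratory chain were examined as lists. None of 14 tested TCA cycle genes was called in limma (median 0.12), and 1 had an unadjusted p under 0.05. Pdhb, the E1 beta subunit of pyruvate dehydrogenase, gave -0.86 at its brightest probe (adjusted p = 0.0664) and -0.47 and 0.24 at others. None of 5 other complex I assembly genes (median 0.12), 21 assembly genes of complexes II to V (0.02), 12 carrier and quinone genes (0.08), 19 import genes (0.18), 72 mitochondrial ribosome genes (0.18) or 58 cytosolic ribosome genes (-0.02) was called in limma. At an unadjusted p under 0.05 these lists held 1, 1, 4, 3, 12 and 6 genes in the same order, beside 21.0% of all tested genes. Of 7 tested genes encoded by mitochondrial DNA, none was called, 1 had an unadjusted p under 0.05 and the median was 0.10. ND5 and ND4L, both complex I subunits, gave 0.74 (adjusted p = 0.143) and -0.60 (adjusted p = 0.488).

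Among 14 tested regulators of mitochondrial gene expression 1 was called, with a list median of 0.09. Esrra, an orphan nuclear receptor that regulates oxidative metabolism genes, lay at 9.37, 9.32 and 8.98 in control mice and 10.01, 10.65 and 10.26 in MEC1 mice. All MEC1 mice were higher, and the probe rose by 1.09 ± 0.21 (SE, adjusted p = 0.0465), while another probe gave 0.52 (adjusted p = 0.367). The Esrra call was lost without any one of the control mice, or without E or F, and under several other settings. Pprc1, a coactivator related to PGC-1, gave 0.99 (adjusted p = 0.0804). Of 11 tested glycolysis genes, all 11 were above 0 (beside 49.5% of all tested genes), 9 had an unadjusted p under 0.05 (beside 21.0%) and 2 were called (beside 1.74%), with a median of 0.66: Ldha, lactate dehydrogenase A, rose by 0.68 (adjusted p = 0.0249) and Pgk1, phosphoglycerate kinase, by 0.83 (adjusted p = 0.0257). Both calls were lost without any one of the control mice, without E or F, and under scaling to 1 median, plain eBayes and chip position, with adjusted p up to 0.305 for Ldha and 0.256 for Pgk1. Scaling to 1 median gave changes of 0.36 for Ldha and 0.42 for Pgk1. Whether the glycolysis and respiratory chain genes differ in their response was not tested.

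**Figure D5:**
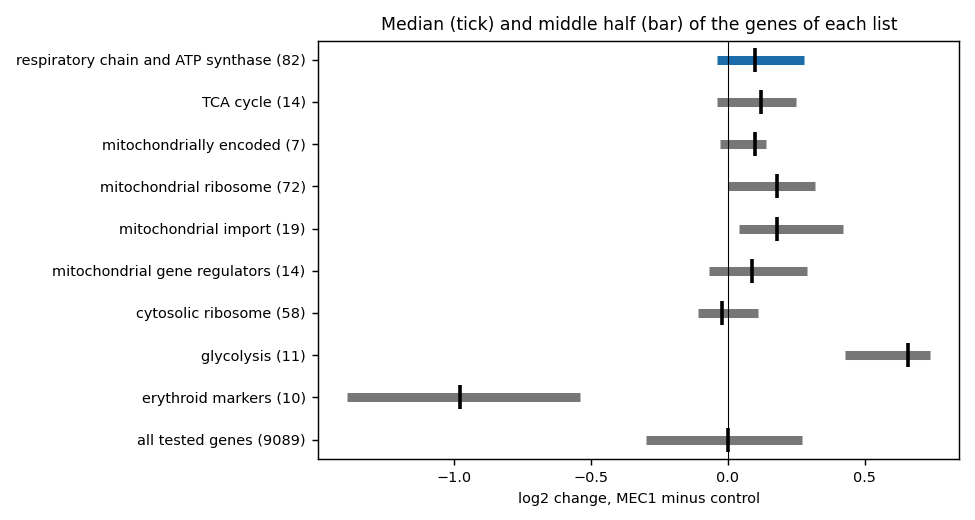
Median log2 change (tick) and middle range from the lower to the upper quartile (bar) over the tested genes of each list, MEC1 minus control, with the number of tested genes in brackets. The respiratory chain and ATP synthase genes have a median of 0.10, glycolysis genes 0.66, erythroid markers -0.98 and all tested genes 0.00.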

How the data were processed

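RNA from purified marrow monocytes and macrophages of 6 mice was hybridised to a 1-colour Illumina mouse bead array, per the labels' protocols. The authors deposited a non-normalized table of linear signal intensity with a detection p-value, per probe and array and per the file headers, and a series matrix of processed intensity. The submitters' processing notes name GenomeStudio, without a version in the sources used here. Read from its values, the series matrix is a quantile normalization without background subtraction; no label states this, and it served only as an alternative.

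R 4.3.3 and limma 3.58.1 were used; neqc normalized the intensities (background from detection p-values, offset 16, quantile, log2), which shrinks changes of dim probes. Probes detected at p under 0.05 on at least 3 of 6 arrays were tested by lmFit and eBayes with trend and robust variance, with Benjamini-Hochberg adjustment over 16460 probes. Tests are two-sided and intervals are unadjusted. Symbols come from the platform annotation, updated through Entrez IDs; no member symbol changed. 10378 probes were unnamed here. Precision is limited by 3 arrays per group. The labels name separate mice.

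The members and lists were chosen with earlier results of these data known. Named genes are member probes that were called, the up to 4 genes per complex with the smallest p, fixed core subunits and tissue forms, genes whose probes disagree most, and the up to 2 genes per list with the smallest p. Alternatives were scaling to a common median, no background correction, the authors' values, offset 50, other detection filters, plain eBayes, array weights, chip position, the mean over probes, and leaving out each mouse. Steps were tested on simulated arrays.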

Additional observations from a re-analysis of the deposited data

How the results depend on the processing

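When arrays were scaled to 1 median instead of by quantiles, the median over all tested genes was -0.47, so directions under it are read against that shift. Member genes then had a median of -0.27, 0.20 above the shift, with complexes I to V at -0.29, -0.24, -0.29, -0.22 and -0.19. Under it 2111 probes were called in all, 1981 of them lower, and 5 member probes, all lower (Cox7a2l, Ndufaf4, 1 Atp5pb probe and both Ndufb11 probes). The cause was not tested. Counts of calls over all tested probes were 95 with plain eBayes, 581 with array weights and 0 with chip position as a covariate, where 2397 probes had an unadjusted p under 0.05, and 5 to 1210 when 1 mouse was left out (1210 without D). Member calls were 2 without the filter, 0 with plain eBayes, 2 with array weights, 0 with chip position, and 0 to 3 when 1 mouse was left out (3 without D). With chip position, complex I had a median of 0.25, complex III of 0.13 and complex V of 0.17. Leaving out 1 mouse gave member medians of 0.07 to 0.15, with complex I at 0.06 (without D) to 0.19 (without E), complex II at 0.14 (without E) to 0.31, complex III at -0.12 (without D) to 0.05 (without E), complex IV at -0.02 (without C) to 0.11 and complex V at 0.05 to 0.11 (without E). The Cox6b1 call was also lost under median scaling (0.49, adjusted p = 0.1), plain eBayes (adjusted p = 0.138) and chip position (adjusted p = 0.34). The cause of these was not tested. Of 1252 combinations of a named probe and a setting, 1137 kept direction and side of the threshold and 65 reversed direction, none of them called. Each value listed below is that of a single probe. The Atp5a1, Cox6b1, Esrra and Tomm40 values are of the probes at -0.19, 0.00, 0.52 and -0.27 in the main fit. The called Cox6b1 and Esrra probes and the singled-out Ndufab1 probe kept their direction in every setting. So did the brightest Atp5a1, Atp5pb, Pdhb and Tomm40 probes. Under median scaling the reversed log2 changes were Atp5b 0.04, Atp5d -0.16, Atp5g2 -0.10, Atp5o -0.33, Atp5pb -0.13, Cox19 -0.31, Cox5a -0.12, Cox6a2 -0.42, Cox6b1 -0.16, Cox7a2 -0.03, Cycs -0.33 and -0.00, Ecsit -0.10, Esrra -0.01, Fh1 -0.19, Ndufab1 -0.33 and -0.47 and -0.15, Ndufaf2 -0.34, Ndufaf3 -0.31, Ndufaf8 -0.28, Ndufb6 -0.06 and -0.31, Ndufs6 -0.39, Pdhb -0.33, Sdhb -0.27 and -0.37, Sdhc -0.24, Sdhd -0.16, Sod2 -0.02, Timmdc1 -0.18, Tomm7 -0.07, Uqcrfs1 -0.09. With chip position they were Atp5a1 0.65, Atp5pb -0.11, Cox4i1 0.17, Cox6a1 0.13, Cycs -0.03, Fh1 -0.09, Ndufab1 -0.06 and -0.42, Pdhb -0.08, Sdhc -0.29, Tomm40 0.06. With array weights they were Cox6b1 -0.04, Ndufaf4 0.03. When 1 mouse was left out, changes that reversed ranged as follows: Atp5a1 -0.34 to 0.01, Atp5b -0.06 to 0.01, Atp5o -0.21 to 0.02, Cox4i1 -0.22 to 0.04, Cox6a1 -0.22 to 0.01 and -0.12 to 0.01, Cox6a2 -0.06 to 0.30, Cox6b1 -0.08 to 0.07, Ndufa4 -0.34 to 0.00, Ndufab1 -0.14 to 0.15, Ndufaf4 -0.21 to 0.18, Ndufs6 -0.21 to 0.01, Sdhb -0.01 to 0.27, Tomm40 -0.57 to 0.05, Uqcrfs1 -0.01 to 0.38. No paired analysis was possible because the letters name mice that the groups do not share. The number of arrays, 3 per group, and the dimness of probes near background limit these values; the offset understates changes of dim probes.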
